A study of Mus musculus with 6 samples.

Results

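The troponin subunit genes are 7 genes, Tnnt1, Tnnt2, Tnnt3, Tnni1, Tnni2, Tnnc1 and Tnnc2, taken by symbol from count tables that list 24411 genes. All 7 were counted in every library and passed the filter on low counts. They were read in C2C12, an immortalised mouse myoblast line of wild-type genotype that fuses into myotubes when serum is lowered, here with 2% horse serum. Differentiated cultures received either the solvent DMSO (3 libraries) or 10 µM Sardomozide dihydrochloride, an inhibitor of the polyamine enzyme encoded by Amd1 (3 libraries), each for 72 h. A culture of 1 line models muscle cells without nerve, load or other tissues, and nothing in the labels ties a group's libraries to separate cultures. The p-values therefore reflect the variation among these 6 libraries alone, and that may be technical variation.

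Troponin is the calcium switch of striated muscle and sits with tropomyosin along the actin filament. Troponin T anchors the complex to tropomyosin, troponin I holds contraction off, and troponin C binds calcium and releases that block. Each subunit is encoded by separate genes for slow and fast fibres, and troponin T and I also by cardiac genes. Cardiac troponin T, the product of Tnnt2, is also made by embryonic skeletal muscle, and Tnnc1 serves both slow muscle and heart.

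The genes lie on 4 chromosomes (GRCm38, GENCODE M21), and several sit beside a gene of another subunit. Slow troponin I, Tnni1 (chromosome 1, 135779434 to 135810989), is followed after 25.4 kb by Tnnt2 (135836354 to 135852260), with 1 other coding gene between them. Fast troponin I, Tnni2 (chromosome 7, 142441808 to 142444410), is followed after 54.4 kb by fast troponin T, Tnnt3 (142498836 to 142516009), also with 1 coding gene between. Slow troponin T, Tnnt1 (chromosome 7, 4504570 to 4516382), lies 1.9 kb from Tnni3, the cardiac troponin I gene, which is outside the 7. The troponin C genes stand apart from these pairs, Tnnc1 on chromosome 14 (31208312 to 31211729) and Tnnc2 on chromosome 2 (164777161 to 164779967). Exons of Tnnc2 share 592 bases with Ube2c, a cell-division gene on the opposite strand, and the tables carry the word strand in their names but give no setting. Whether reads of these genes were told apart is therefore not known. Ube2c had 663 to 1076 counts in a library, against 22165 to 41721 for Tnnc2.

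Promoter sequences are shown for a cardiac, a fast and 2 slow genes, which were transcribed in the same cultures. The RefSeq table (GRCm38.p6) held windows for 5 of the 7 genes, not for Tnnt3 or Tnni2. The lines below give the 250 bases before a RefSeq start site of Tnnt2 (chr1:135836084-135836333, plus strand), Tnni1 (chr1:135799171-135799420, plus strand), Tnnc1 (chr14:31208062-31208311, plus strand) and Tnnc2 (chr2:164779735-164779984, minus strand). The Tnni1 window lies inside the GENCODE span of that gene, and 19 of its bases overlap an annotated untranslated region. Tnni1 and Tnnt2 each had a further RefSeq start, at 135799511 and 135836989, whose windows are not shown. Capitals mark matches, on either strand, to the E-box CANNTG (bound by myogenic factors such as MyoD and myogenin), the MCAT element CATTCC (bound by TEAD factors), the MEF3 site TCAGGTT, the core promoter element TATAAA, and the MEF2 site.
Tnnt2: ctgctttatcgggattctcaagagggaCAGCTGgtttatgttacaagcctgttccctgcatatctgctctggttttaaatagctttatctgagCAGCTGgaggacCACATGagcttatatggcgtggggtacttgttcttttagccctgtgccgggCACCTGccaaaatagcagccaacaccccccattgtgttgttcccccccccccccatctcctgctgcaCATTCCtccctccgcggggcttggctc
Tnni1: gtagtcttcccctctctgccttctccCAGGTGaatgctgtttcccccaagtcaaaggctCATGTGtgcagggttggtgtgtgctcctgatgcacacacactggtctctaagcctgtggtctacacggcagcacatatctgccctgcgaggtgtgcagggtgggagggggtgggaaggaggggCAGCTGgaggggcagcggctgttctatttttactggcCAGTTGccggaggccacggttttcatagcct
Tnnc1: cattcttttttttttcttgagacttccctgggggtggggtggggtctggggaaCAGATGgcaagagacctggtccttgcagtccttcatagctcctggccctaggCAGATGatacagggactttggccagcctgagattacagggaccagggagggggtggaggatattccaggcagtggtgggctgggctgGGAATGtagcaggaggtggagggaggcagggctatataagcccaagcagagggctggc
Tnnc2: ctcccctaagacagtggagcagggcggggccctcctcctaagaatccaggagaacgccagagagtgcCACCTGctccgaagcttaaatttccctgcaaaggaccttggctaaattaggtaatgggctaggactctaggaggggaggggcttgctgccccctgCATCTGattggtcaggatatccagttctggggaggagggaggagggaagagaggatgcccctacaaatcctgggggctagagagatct
An E-box stood in each of these windows, and 66.2% of all 32851 RefSeq windows of the same length held one. The E-box form CAGCTG, found in 13.0% of windows, occurred in Tnnt2 with first bases 223 and 157 bases before the start and in Tnni1 at 68. An MCAT element, found in 12.6% of windows, stood 27 bases before the Tnnt2 start and, on the other strand, 58 bases before that of Tnnc1. TATAAA, found in 12.4% of windows, matched in Tnnt1, 30 bases before its start. Only these exact letters were searched, so variants such as the tatataa near the end of the Tnnc1 line were not counted. No match to the MEF3 or MEF2 site (3.49% and 2.92% of windows) was found in the windows of the 5 genes. A match is a description of letters and not a measured binding site.

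Library totals ran from 25496323 to 36709804 counts, and 13076 genes were tested. The libraries carried the markers of differentiated myotubes (10 of 10 listed genes, Mymk and Mymx under their older symbols Tmem8c and Gm7325, with a summed level of 17200 to 18200 CPM with DMSO and 17200 to 20300 CPM with Sardomozide, where CPM is counts per 1000000 counts after TMM scaling). Of the 10, Myog rose, while with DESeq2 or limma-voom 2 rose and 1 fell. Markers of cycling or undifferentiated myoblasts summed to 696 to 721 and 700 to 753 CPM, and 1 of 10, Mki67, rose (edgeR adjusted p = 0.0443), a call lost when any library but Sardomozide replicate 1 was left out. Cardiomyocyte markers summed to 46.1 to 49 CPM with DMSO and 26 to 34.6 CPM with Sardomozide, with Tbx5 and Myl7 at 0 counts in all 6 libraries. Of 4 tested, 1 fell, Myh6, from 31.5 ± 2.3 to 14.3 ± 3.7 CPM, and Myh6 was the larger part of the DMSO sum. The 3 others did not pass. Nkx2-5 had more counts with Sardomozide (66, 43 and 59) than with DMSO (31, 37 and 24), without regard to library size. The counts of Gata4 and Tnni3 overlapped between groups. Of the other lists, fibroblast markers summed to 7560 to 9070 and 7900 to 8940 CPM, smooth muscle markers to 3650 to 3870 and 3600 to 3720 CPM, and adipocyte markers to 3.52 to 3.78 and 4.33 to 4.56 CPM, with Adipoq, Plin1, Cidec and Lep at 0. Dcn fell among 5 tested fibroblast genes, Tagln and Smtn fell among 5 smooth muscle genes, and Pparg, the 1 adipocyte gene tested, did not pass (edgeR adjusted p = 0.269). With libraries left out, 2 fibroblast genes fell without DMSO replicate 2, 1 myotube gene fell without Sardomozide replicate 3, 2 myotube and 2 myoblast genes rose without Sardomozide replicate 1, and 1 smooth muscle gene fell without any 1 of DMSO replicates 1 and 3 and Sardomozide replicates 2 and 3. Dcn had 18.8 ± 2.15 CPM with DMSO, so most of the fibroblast sum came from other listed genes. Whether the marker sums reflect cells of each type or transcripts of the C2C12 cells themselves was not tested. Their part in the troponin values was not tested either. Amd1 had at most 3 counts in a library, so its own counts give no check of the treatment labels. Whether the gene was silent or its reads were not counted was not tested. In bulk RNA, fewer cells of a type and less RNA per cell cannot be told apart.

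Transcripts of slow, fast and cardiac troponin were all abundant in the solvent-treated myotubes. Per kilobase of the longest coding transcript, the 7 genes ranked from 7 to 54 among 12140 tested genes with a length. Tnnc1 was highest at 1995 ± 109 CPM per kb (SD, n = 3), and Tnnt3 followed at 1520 ± 87.6. Cardiac Tnnt2 (1376 ± 54.3) and fast Tnnc2 (1299 ± 78.7) came next. Their ranges over the DMSO libraries overlapped, but within each library Tnnt2 was the higher (1314 and 1246, 1414 and 1389, 1400 and 1262). Tnni1 stood at 1114 ± 40.8, Tnnt1 at 975 ± 69.3 and Tnni2 at 609 ± 35.2 CPM per kb. With Sardomozide the order of the means was the same, from 2237 ± 192 for Tnnc1 to 564 ± 23.5 for Tnni2. There the range of Tnnt3 overlapped that of Tnnt2, Tnnt2 overlapped Tnnc2, and Tnni1 overlapped Tnnt1. Within each Sardomozide library, Tnnt3 was above Tnnt2 and Tnnt2 above Tnnc2, though replicate 1 had 1635 for Tnnt2 and 1634 for Tnnc2. Tnni1 was below Tnnt1 in Sardomozide replicate 1 (1056 and 1148) and above it in replicates 2 and 3. The order of the genes rests on the length used. All joined exons of Tnnt2 span 7752 bases, against 1200 for its longest coding transcript, and those of Tnnc2 800 against 700. Without regard to length, Tnnt2 had the highest DMSO mean at 1652 ± 65.2 CPM, beside 1641 ± 94.7 CPM for Tnnt3.

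Cardiac troponin T and cardiac troponin I transcripts differed widely in number. Tnnt2 gave 40083 to 71563 counts in a library, where Tnni3, the cardiac troponin I gene outside the 7, gave 22 to 59, without regard to length. Tnni3 counts were 38, 59 and 25 with DMSO and 33, 22 and 32 with Sardomozide, and the groups overlapped (log2 fold change −0.70 ± 0.36, edgeR adjusted p = 0.198).

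None of the 7 troponin genes passed edgeR's test between Sardomozide and DMSO, while 16.3% of all genes tested did (7.88% higher and 8.45% lower). At an unadjusted p under 0.05 there were 2 of 7, Tnnc1 and Tnni2, against 29.6% of all genes. With 7 genes a count of 0 is close to that background and is no result about the family. DESeq2 called 1 of 7, Tnnc1. The 95% intervals of edgeR's fold changes reached no lower than 0.865-fold, for Tnni2, and no higher than 1.29-fold, for Tnnc2. The median log2 fold change of the 7 genes was 0.05, beside −0.0008 for all genes tested, and the median of its absolute value was 0.08 beside 0.12. Counting error was at most 0.946% of a value, and for each gene the SD between libraries was larger than its counting error in both groups, from 0.677% of the mean for Tnni1 to 14.9% for Tnnc2, both among the Sardomozide libraries.

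**Figure D1:**
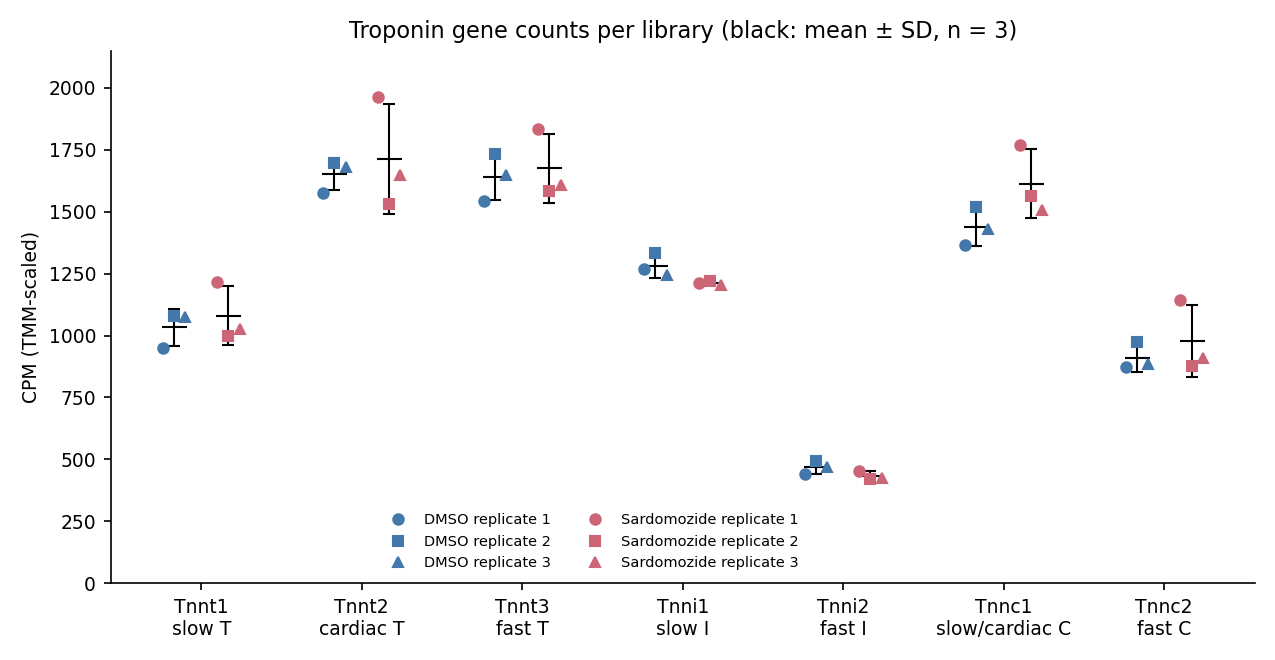
Counts of each troponin gene scaled to CPM (y axis) in the 3 DMSO (blue) and 3 Sardomozide (red) libraries, with the mean ± SD in black. Sardomozide replicate 1 is the highest point for Tnnt1, Tnnt2, Tnnt3, Tnnc1 and Tnnc2, and the groups are apart for Tnni1.

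Among the troponin T genes, slow Tnnt1 had 948, 1077 and 1074 CPM with DMSO and 1216, 999 and 1025 CPM with Sardomozide. In 2 of the 3 treated libraries the level lay within the control range, and in replicate 1 above it (log2 fold change 0.06 ± 0.078 SE, edgeR adjusted p = 0.65). Cardiac Tnnt2 had 1577, 1698 and 1681 CPM with DMSO and 1962, 1532 and 1650 CPM with Sardomozide, so both the highest and the lowest value came from treated libraries (0.05 ± 0.082, edgeR adjusted p = 0.72). Fast Tnnt3 had 1543, 1732 and 1648 CPM with DMSO and 1836, 1585 and 1606 CPM with Sardomozide, again overlapping (0.03 ± 0.057, edgeR adjusted p = 0.776). In all 3 genes the value of Sardomozide replicate 1 stood above the other 5 libraries.

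The troponin I genes had the lower group mean with Sardomozide. Slow Tnni1 had 1267, 1334 and 1243 CPM with DMSO and 1214, 1222 and 1205 CPM with Sardomozide. Every treated library lay below every control, and it was the only one of the 7 genes whose groups did not overlap, a pattern shown by 16.5% of all genes in this direction, by 17% in the other and by 33.5% in either. Its difference did not pass (log2 fold change −0.08 ± 0.044, 95% interval −0.17 to 0.01, edgeR adjusted p = 0.245). Fast Tnni2 had 440, 494 and 469 CPM with DMSO and 454, 421 and 425 CPM with Sardomozide. DMSO replicate 1 lay below Sardomozide replicate 1, so the groups overlapped, and the difference did not pass (−0.11 ± 0.047, 95% interval −0.21 to −0.01, edgeR adjusted p = 0.122). Without Sardomozide replicate 1, Tnni2 passed as lower (−0.145 ± 0.047, edgeR adjusted p = 0.044).

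Of the troponin C genes, Tnnc1 came nearest to a call. It had 1365, 1521 and 1430 CPM with DMSO and 1770, 1565 and 1506 CPM with Sardomozide, where the lowest treated library lay just under the highest control. The log2 fold change was 0.17 ± 0.057 (95% interval 0.04 to 0.29, edgeR adjusted p = 0.0583), a 1.12-fold difference. Tnnc1 passed as higher in 5 of 15 other fits, with DESeq2 (adjusted p = 0.0369), with no scaling factors (0.0466), with no filter (0.00799), and without DMSO replicate 2 (0.0375) or Sardomozide replicate 3 (0.0266). Its adjusted p ran from 0.00799 to 0.237 over those 15 fits. Without Sardomozide replicate 1 the difference shrank to 0.094 ± 0.048 (adjusted p = 0.207). Fast Tnnc2 had 872, 973 and 883 CPM with DMSO and 1144, 876 and 911 CPM with Sardomozide, and 2 of its treated libraries lay within the control range (log2 fold change 0.10 ± 0.11, edgeR adjusted p = 0.601). Ube2c, with which Tnnc2 shares exon bases, rose from 25.3 ± 1.33 to 29.8 ± 1.44 CPM (edgeR adjusted p = 0.029), a call lost when any library but Sardomozide replicate 1 was left out, and its part in the Tnnc2 counts was not tested.

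Sardomozide replicate 1 was the highest of the 6 libraries for 5 of the 7 genes, the T and C genes, against 18.5% of all genes tested. The summed troponin level was 8010, 8824 and 8426 CPM with DMSO and 9594, 8199 and 8323 CPM with Sardomozide. These sums were 0.799% to 0.883% and 0.815% to 0.953% of all counts in a library. Group means were 8420 ± 407 and 8705 ± 772 CPM (p = 0.7 by an exact two-sided permutation test, which cannot go below 0.1 with 3 libraries against 3). Without Sardomozide replicate 1 the treated mean was 8261 CPM, below that of the controls, and the log2 fold changes of Tnnt1, Tnnt2, Tnnt3 and Tnnc2 turned to −0.03, −0.05, −0.04 and −0.03. The sum of the myotube markers in that library was 18500 CPM, above the 3 DMSO libraries (17200 to 18200) and below Sardomozide replicate 2 (20300), and the myoblast markers summed to 700 CPM, within the control range. The part of this library in the results beyond these values was not tested.

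**Figure D2:**
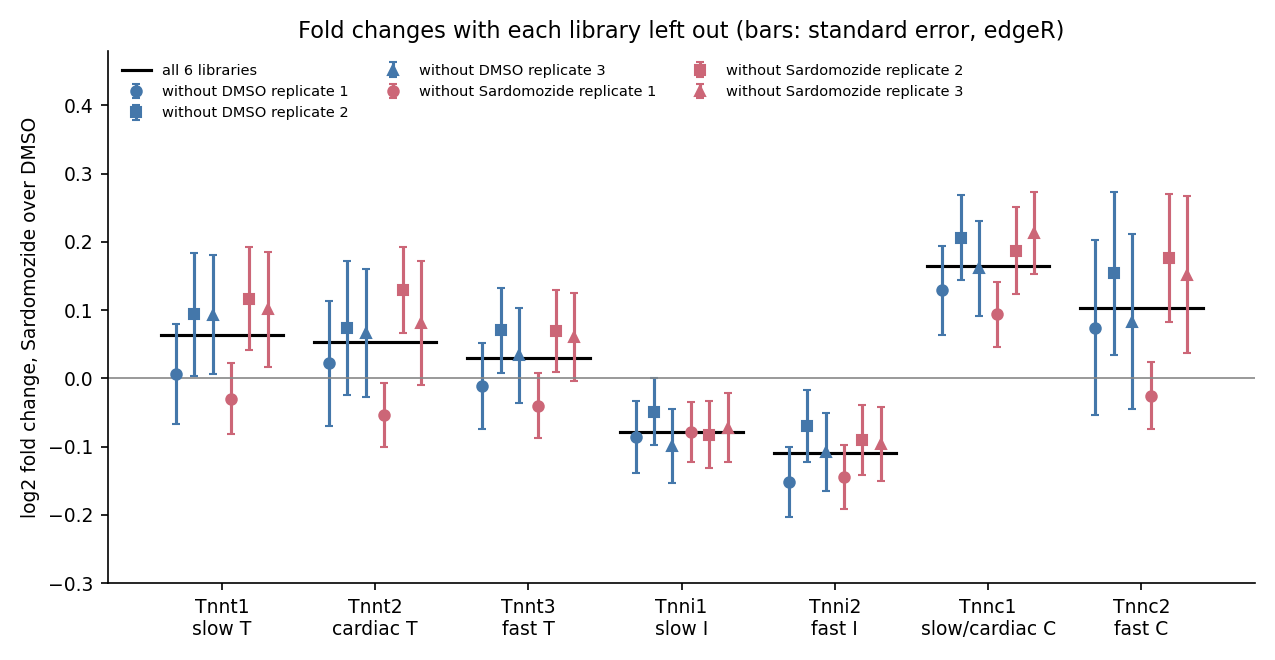
The log2 fold change of each troponin gene (y axis, error bars are standard errors of edgeR's fit) with each of the 6 libraries left out, beside the value from all 6 (black line). Leaving out Sardomozide replicate 1 takes Tnnt1, Tnnt2, Tnnt3 and Tnnc2 below 0, and both troponin I genes stay below 0 and Tnnc1 above 0 in each of the 6 fits.

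In slow, fast and cardiac make-up the groups of libraries overlapped for each class. Slow genes (Tnnt1, Tnni1 and Tnnc1) made up 46.02%, 45.9% and 45.94% of the summed per-length level with DMSO and 45.58%, 47.88% and 46.53% with Sardomozide. Fast genes (Tnnt3, Tnni2 and Tnnc2) made up 38.43%, 38.95% and 38.29%, then 38.42%, 37.48% and 37.89%. Cardiac Tnnt2 made up 15.55%, 15.15% and 15.77%, then 16%, 14.64% and 15.58%. The differences, Sardomozide minus DMSO, were 0.71, −0.627 and −0.083 percentage points (p = 0.4, 0.2 and 0.9, two-sided exact permutation tests, smallest p possible 0.1). Single libraries moved these values, since the slow difference was 1.25 without Sardomozide replicate 1 and 0.10 without Sardomozide replicate 2. The cardiac difference was −0.379 and 0.301 in those fits and 0.059 without DMSO replicate 3, and the fast one −0.402 without Sardomozide replicate 2. With lengths of all joined exons the slow difference was 1.06. The class shares themselves, and the isoform shares below, also depend on the length used. Only their differences were taken at other lengths. Left without Tnnc1, the slow share differed by −0.667 and the fast share by 0.319 percentage points, so the direction of both rests on whether Tnnc1 is counted.

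**Figure D3:**
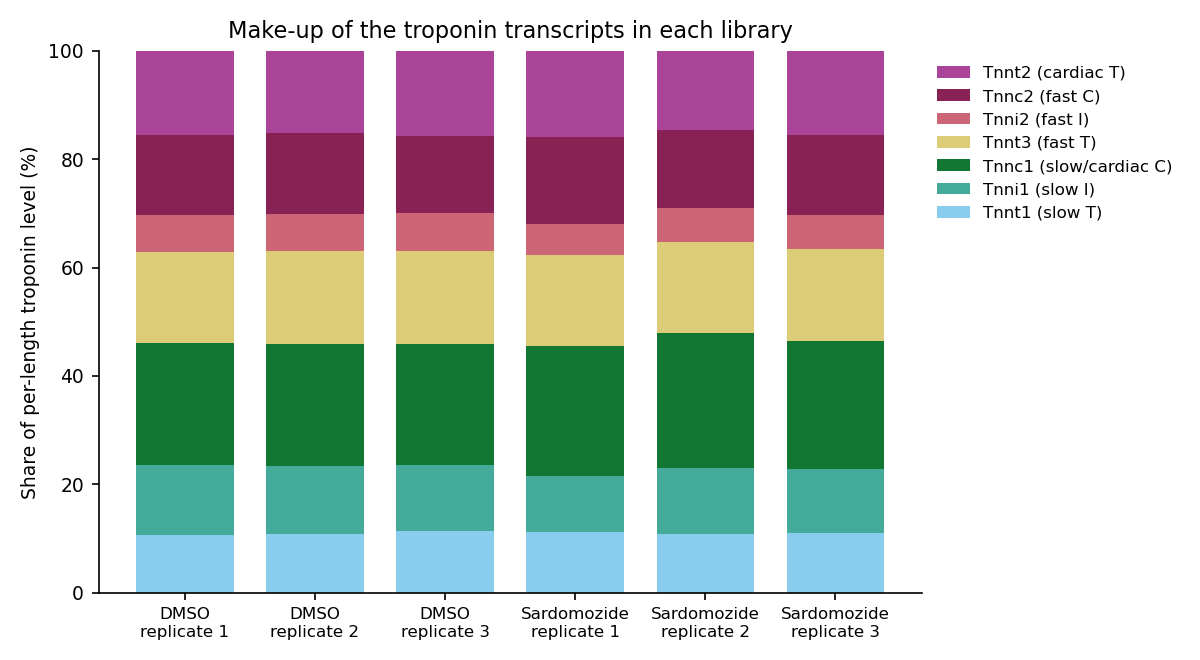
Stacked share (y axis, percent) of each troponin gene in the summed per-length troponin level of each of the 6 libraries (x axis), slow genes at the bottom, fast genes above them and cardiac Tnnt2 on top. The slow block ends between 45.58% and 47.88% in every library, and the cardiac block takes 14.64% to 16%.

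Within each subunit the isoform shares overlapped between the groups. Tnnt3 held 39.3 ± 0.512% of troponin T with DMSO and 38.9 ± 0.939% with Sardomozide, Tnnt2 35.6 ± 0.532% and 35.7 ± 0.944%, and Tnnt1 25.2 ± 0.565% and 25.5 ± 0.192%. Tnni1 held 64.7 ± 0.991% of troponin I with DMSO and 65.2 ± 0.955% with Sardomozide, the rest being Tnni2. Tnnc1 held 60.6 ± 0.474% of troponin C with DMSO and 61.7 ± 1.7% with Sardomozide, the rest being Tnnc2. Over the 10 shares compared, the smallest exact permutation p was 0.2, with an adjusted p of 0.875. The shares of Tnni1 and Tnni2, and those of Tnnc1 and Tnnc2, mirror each other.

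In 3 of 4 ratios of troponin I to another subunit of the same fibre class, every Sardomozide library lay below the controls. The pairs were chosen once the values were known, so they are a description. They share genes with each other and are built from the gene values given above. No ratios of other genes were taken as a background, and among single genes 33.5% did not overlap in either direction. Fast troponin I stood to fast troponin T, Tnni2 to Tnnt3, at 0.401, 0.401 and 0.4 per length in the DMSO libraries and at 0.347, 0.373 and 0.372 in the Sardomozide libraries, a mean difference of −9.14%. Tnni2 to Tnnc2 was 0.46, 0.463 and 0.484, then 0.362, 0.438 and 0.425 (−13.2%, or a log2 difference of −0.20, which was −0.12 without Sardomozide replicate 1). Slow Tnni1 to Tnnc1 was 0.582, 0.55 and 0.545, then 0.43, 0.489 and 0.502 (−15.4%).

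The slow ratio of Tnnc1 to Tnnt1 was 2.11, 2.07 and 1.96 with DMSO and 2.14, 2.3 and 2.16 with Sardomozide, with every treated library above the controls. Tnni1 to Tnnt1 and Tnnc2 to Tnnt3 overlapped between groups. Summed over isoforms, troponin I made up 19.4 ± 0.387% of the troponin level with DMSO and 17.6 ± 1.28% with Sardomozide, and troponin C 37.1 ± 0.464% and 39.2 ± 0.789%, neither overlapping, whereas troponin T (43.6 ± 0.731% and 43.2 ± 0.817%) overlapped. Each of the 6 comparisons without overlap gave the smallest possible exact permutation p of 0.1 (adjusted p = 0.15 over 9 comparisons). None could therefore pass, and the comparisons share genes, so they are not independent. The difference in the troponin I share was −1.08 percentage points without Sardomozide replicate 1 and −1.81 with all libraries.

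**Figure D4:**
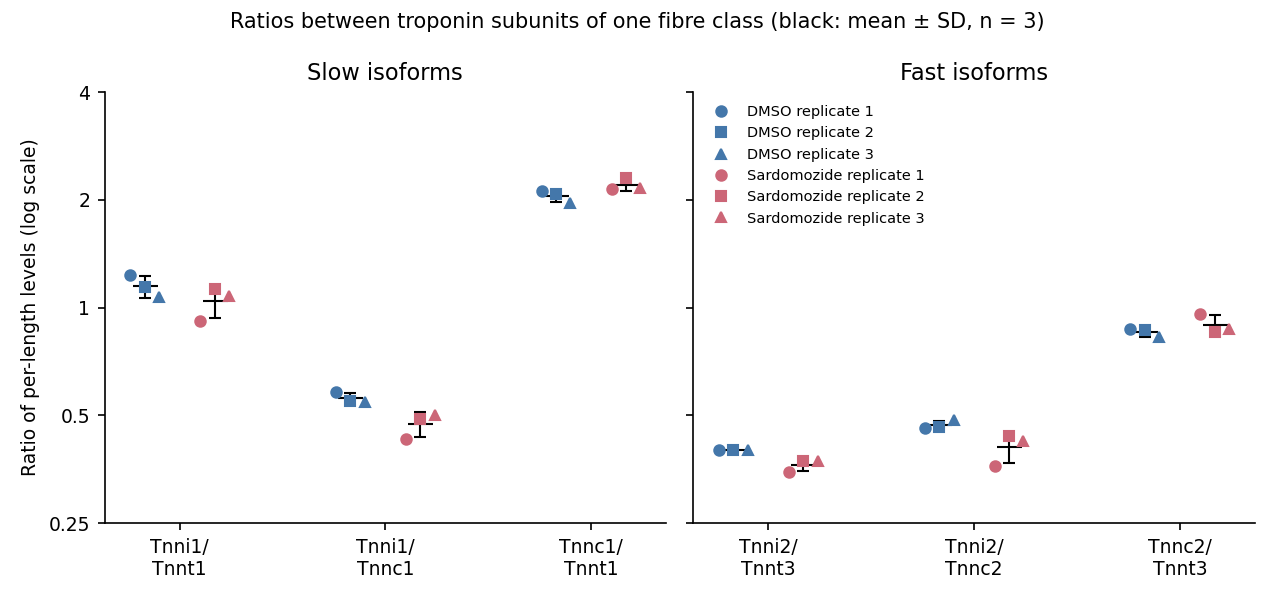
Ratio of per-length levels (y axis, log scale) between slow subunits (left) and fast subunits (right) in the 3 DMSO (blue) and 3 Sardomozide (red) libraries, with the mean ± SD in black. The ratios of Tnni1 to Tnnc1, Tnni2 to Tnnt3 and Tnni2 to Tnnc2 are lower in all 3 Sardomozide libraries.

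Most members varied together from library to library. Over the 6 libraries, log2 CPM of Tnnt1 had a Pearson r of 0.966 with Tnnt3, 0.945 with Tnnt2 and 0.901 with Tnnc2. Tnni1 had r between −0.346 (with Tnnc1) and 0.772 (with Tnni2). The r over 6 libraries also holds the difference between the groups. For deviations from the group mean, Tnni1 had r between 0.0695 (with Tnnt2) and 0.527 (with Tnni2). Tnni2 with Tnnc1 had −0.003 over the 6 libraries and 0.897 for the deviations, and Tnnt1 with Tnnt3 0.97 for the deviations. These values share the libraries and their scaling and are given as a description. Among 5932 other genes at a mean log2 CPM of 5 or more, the patterns most like that of Tnnc1 over the 6 libraries were those of Polb, a DNA repair polymerase gene (r = 0.991), Dio2, the gene of a deiodinase that activates thyroid hormone (0.985), and Plekha7 (0.982). They were picked as the highest of 5932 values over only 6 libraries, so these r are a description too. In each, as in Tnnc1, Sardomozide replicate 1 was the highest library and DMSO replicate 1 the lowest. Of the 3 genes, Plekha7 passed edgeR's test as higher (30.9 ± 1.98 to 36.1 ± 2.77 CPM, adjusted p = 0.0392). The call was lost with DESeq2 (0.052), with a replicate block (0.0633) and without DMSO replicate 1 (0.167), DMSO replicate 3 (0.112) or Sardomozide replicate 1 (0.176). Dio2 had 120 ± 8.19 and 140 ± 14.8 CPM (edgeR adjusted p = 0.0676). It passed with DESeq2 (0.0217), with no filter (0.0143), with no robustness (0.0343) and without Sardomozide replicate 3 (0.0245). Polb had 39.7 ± 0.875 and 41.4 ± 1.19 CPM (edgeR adjusted p = 0.556).

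Other genes of the thin filament, which troponin regulates, moved in both directions in the same fit. In that fit 7.88% of all genes tested rose and 8.45% fell, a background for this list and those below. Of 27 tested, 3 rose, 4 fell and 20 did not pass, with a median log2 fold change of 0.01, and 2 fell without DMSO replicate 2, DMSO replicate 3, Sardomozide replicate 2 or Sardomozide replicate 3. Klhl41, which helps keep the filament protein nebulin stable, rose from 560 ± 13 to 686 ± 31.9 CPM, and Tmod1, which caps the pointed end of actin, from 162 ± 11.8 to 190 ± 8.49 CPM. Tpm3, the slow tropomyosin gene, fell from 382 ± 8.03 to 314 ± 16.7 CPM, and Klhl40 from 126 ± 7.31 to 109 ± 2.01 CPM. EdgeR's adjusted p for these 4 genes ran from 0.000126 for Klhl41 to 0.00385 for Tmod1.

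Several other slow-fibre and fast-fibre genes had differences outside the intervals of the troponin genes. Of 13 tested slow and cardiac isoform genes, Tpm3 among them again, 2 rose, 6 fell and 5 did not pass. Their median log2 fold change was −0.28, and with a library left out 2 rose and 5 to 8 fell. Mybpc1, a slow myosin-binding protein gene, had a 95% interval of −2.09 to −1.76 on the log2 scale, and Csrp3, a muscle LIM protein gene, one of −1.12 to −0.88, while those of the slow troponins lay between −0.17 and 0.29. Casq2, the calsequestrin gene of slow muscle and heart, rose from 817 ± 24.5 to 1047 ± 65.5 CPM, and Ankrd2 rose by 0.53 on the log2 scale. Of 15 fast isoform genes, 0 rose, 5 fell and 10 did not pass, with a median of −0.01. With a library left out 4 to 6 fell, and 1 rose without DMSO replicate 2 or without Sardomozide replicate 3. Pfkm, Myoz1, Myh2 and Atp2a1 fell, with log2 fold changes of −0.35, −1.21, −0.59 and −0.27. Of 7 developmental isoform genes, Chrng rose (log2 fold change 0.22), Myh8 and Myl4 fell (−0.63 and −0.49) and 4 did not pass.

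**Figure D5:**
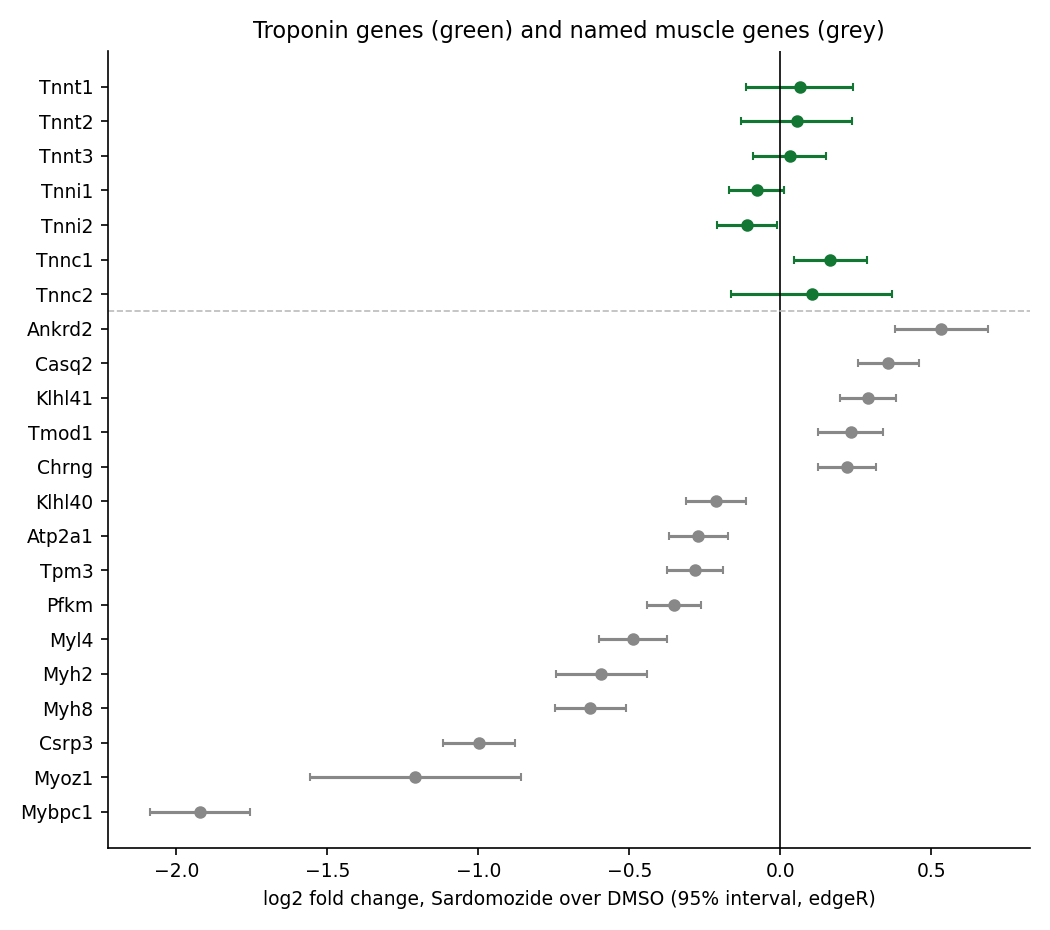
Log2 fold change of Sardomozide over DMSO with its 95% interval (x axis, edgeR) for the 7 troponin genes (green) and for the genes named from the thin filament and isoform lists (grey). The grey genes were named because they passed the test, and the troponin intervals lie between −0.21 and 0.37.

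Of 42 tested factors that control fibre type or troponin genes, 9 rose, 8 fell and 25 did not pass. Among all genes tested, 16.3% were called. With a library left out, 7 to 10 of the factors rose and 6 to 10 fell. Myf6, a myogenic factor of mature fibres, fell from 3.91 ± 0.526 to 0.702 ± 0.312 CPM, and Nfatc2, a calcineurin-responsive factor, from 6.95 ± 0.922 to 2.66 ± 0.454 CPM. Hdac9, a repressor of MEF2 factors, fell from 11.8 ± 0.93 to 5.55 ± 0.914 CPM, and Mef2a rose from 445 ± 9.14 to 565 ± 11.5 CPM. EdgeR's adjusted p for these 4 genes ran from 6.42e-06 to 1.56e-05.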

How the data were processed

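RNA of 6 C2C12 myotube libraries was sequenced with paired reads of 150 bases, per the labels' protocols. The authors deposited raw read counts per gene symbol, 1 table a library. STAR, StringTie, DESeq2, GRCm38 and mm10 appear in the submitters' processing notes. Versions, annotation, strand use and the treatment of multiply mapped reads were not given in the sources used.

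Genes were filtered with filterByExpr (minimum count 10, total 15), scaled by TMM and tested with edgeR 4.0.16 (R 4.3.3; robust quasi-likelihood, two-sided, no term besides treatment). The Benjamini-Hochberg adjustment covered 13076 genes, with a threshold of 0.05. After CPM and shares, ± is the SD over 3 libraries, and after log2 fold changes the SE. Levels per length used the longest GENCODE M21 protein-coding transcript, since longer Tnnt2 and Tnni1 models are non-coding. Sums, shares and ratios were compared per library by exact permutation (SciPy 1.17.1). Replicates differed by a chi-square of 5.45 to 16.1 per degree of freedom, so none repeated another. The fit was checked on simulated counts with the same dispersion for all genes and no deviating library, so the check does not cover such features of these data.

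Named genes are the 7 members, up to 4 called genes with the smallest adjusted p from each list (the top tested gene where none was called), and the 3 genes most like Tnnc1. Mymk and Mymx were matched through RefSeq synonyms, a step added after seeing the tables. Members and lists were chosen with earlier results of these data known. Alternatives were RLE, upper-quartile or no scaling, DESeq2 1.42.0, limma-voom (limma 3.58.1), other filters, a replicate block, no robustness, a threshold of 0.01, other lengths and each library left out.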

Additional observations from a re-analysis of the deposited data

How the results depend on the processing

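Over 15 other fits, Tnni1, Tnni2 and Tnnc1 kept their direction in each, and the number of troponin genes called was 0 or 1. It was 1, through Tnnc1, with no scaling factors, DESeq2 and no filter (log2 fold changes 0.166, 0.165 and 0.167). Leaving out a library gave 0 to 1 troponin genes called, with log2 fold changes of 0.094 to 0.213 for Tnnc1, −0.152 to −0.0697 for Tnni2, −0.03 to 0.117 for Tnnt1, −0.04 to 0.0703 for Tnnt3, −0.025 to 0.176 for Tnnc2 and −0.054 to 0.129 for Tnnt2. Tnnt3 turned to −0.0117 without DMSO replicate 1, and without Sardomozide replicate 1 Tnnt1, Tnnt3, Tnnc2 and Tnnt2 turned to −0.0298, −0.04, −0.0253 and −0.0539; the cause was not tested. The number of all genes called was 1326 to 1952 with a library left out, such fits having fewer samples, and 1079 at a threshold of 0.01. With Tnnc1 left out, the slow and fast shares differed by −0.667 and 0.319 percentage points, since Tnnc1 is the slow gene with the largest difference. Among the other named genes that were called, Mki67, Smtn and Plekha7 lost the call in some of these fits, as did Ube2c. With a library left out, the spread is estimated over the remaining 5. Libraries with the same replicate number did not deviate together (r = −0.09, −0.0897 and −0.0268 over 10623 genes). Between libraries of unlike number r ran from −0.0813 to 0.167, the highest for DMSO replicate 1 with Sardomozide replicate 2. No block for such pairs was fitted. With the replicate number as a block 1820 genes and 0 troponin genes were called. The lowest count of a member was 11185.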

Other observations

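Among 12 tested genes listed as troponin kinases or phosphatases, 1 rose, Ppp1cb, a catalytic subunit of protein phosphatase 1 (192 ± 4.68 to 237 ± 5.09 CPM, edgeR adjusted p = 3.98e-05), and 11 did not pass. Whether their products act on the troponin of these cells was not tested. Without DMSO replicate 2, 2 rose. Tnni3k, a cardiac kinase gene that binds troponin I, had 2 to 8 counts in a library and was not tested.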
